A study of Homo sapiens with 2 samples.

Results

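The exons of 5 apoptotic genes, AATF, AIFM1, API5, ATM and NFKB1, were followed in RNA sequencing of Huh7 cells, a human hepatocellular carcinoma cell line. They are the apoptotic genes in which the study followed up its RNA sequencing by RT-PCR of an alternatively spliced exon, other genes having been tested in separate experiments, and their exons were found as the listed exons on the gene's strand within the gene's hg19 window. They hold 133 of the 239322 exons listed for each library, with 12 in AATF, 17 in AIFM1, 15 in API5, 65 in ATM and 24 in NFKB1. The study sequenced 1 library of cells treated for 24 h with 0.1% DMSO (control) and 1 library of cells treated for 24 h with 0.1 mM BS008, a compound derived from amiloride. The cells of both conditions were at passages 15-20. A treatment field shared by both samples names only BS008, so the condition of each library was taken from its own characteristics. There are no replicates, so no difference between the conditions was tested. All intervals cover counting error only, and a Fisher's exact test on reads compares the 2 libraries and not the conditions. The number of cells with a gene's RNA and the amount of RNA per cell cannot be told apart in bulk libraries.

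Alternative splicing joins different sets of exons of 1 gene, and an exon whose length is not a multiple of the codon length shifts the reading frame of everything after it when it is left out. Apoptosis is carried out through caspases, through proteins released from mitochondria, and through the DNA damage and NF-kB pathways that decide whether a damaged cell survives. The 5 genes come from different places in this network. AATF encodes a transcription cofactor and nucleolar protein that acts in the p53 response, and AIFM1 encodes a mitochondrial flavoprotein that takes part in caspase-independent death when it moves to the nucleus. API5 encodes a nuclear inhibitor of apoptosis, ATM the kinase that signals DNA double-strand breaks, and NFKB1 the p105 precursor of the NF-kB subunit p50.

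The 6 exons tested by RT-PCR are shown here because each result on splicing refers to them. Each is printed 5′ to 3′ in lower case from the GENCODE release 29 transcripts, with the last 3 bases, next to the 5′ splice site, in capitals. On GRCh38 they lie at chr17:36986617-36986731 (plus strand), chrX:130156461-130156603 and chrX:130155156-130155286 (both minus strand), chr11:43326507-43326611, chr11:108248933-108249102 and chr4:102578881-102579039 (all plus strand).
AATF exon 5: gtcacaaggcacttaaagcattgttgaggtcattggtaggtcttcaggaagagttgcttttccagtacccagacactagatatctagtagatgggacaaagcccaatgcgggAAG
AIFM1 exon 2: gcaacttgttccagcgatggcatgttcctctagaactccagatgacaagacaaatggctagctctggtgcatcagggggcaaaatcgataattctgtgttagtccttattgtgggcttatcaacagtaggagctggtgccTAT
AIFM1 alternative exon 2: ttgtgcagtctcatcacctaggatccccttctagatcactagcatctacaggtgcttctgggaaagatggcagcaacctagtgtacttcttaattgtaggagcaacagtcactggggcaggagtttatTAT
API5 exon 7: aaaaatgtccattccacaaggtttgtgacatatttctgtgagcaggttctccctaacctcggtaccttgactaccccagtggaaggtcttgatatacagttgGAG
ATM exon 9: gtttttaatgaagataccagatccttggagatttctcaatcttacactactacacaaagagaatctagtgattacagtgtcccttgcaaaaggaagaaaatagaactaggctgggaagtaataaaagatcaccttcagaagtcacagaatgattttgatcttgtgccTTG
NFKB1 exon 8: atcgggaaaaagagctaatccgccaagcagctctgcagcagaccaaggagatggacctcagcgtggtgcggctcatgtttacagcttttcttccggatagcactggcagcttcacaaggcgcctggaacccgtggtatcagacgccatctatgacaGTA

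All bases of these exons are coding in the annotated transcripts. The exons of API5 (105 bp) and NFKB1 (159 bp) hold 35 and 53 whole codons. The exons of AATF (115 bp), AIFM1 (both alternatives) and ATM (170 bp) are not multiples of 3, and without them the first stop codon in the shifted frame comes at codon 289 of AATF (560 codons in full), codon 44 of AIFM1 (613 codons with exon 2) and codon 372 of ATM (3056 codons). The GC content of the exons was lowest in ATM (36.5%) and highest in NFKB1 (54.1%). The 2 AIFM1 exons are alternatives to each other, and the alternative exon 2 takes the place of exon 2 in an isoform known from brain. Annotated transcripts that join the primer exons directly are 1 of AIFM1, marked for nonsense-mediated decay, and 1 protein-coding transcript of API5, and none was annotated for AATF, ATM or NFKB1.

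The primers sit in exons on either side, for AATF in exons 3 and 6, so a transcript with the exon gives a longer product than one without it. The lengths on the annotated transcripts are 427 bp with the AATF exon and 312 bp without it, 226 and 121 bp for API5, 357 and 187 bp for ATM, and 346 and 187 bp for NFKB1. For AIFM1 the product is 293 bp with exon 2, 281 bp with the alternative exon 2, 424 bp with both and 150 bp with neither. The primers of AIFM1 and API5 are shown because the comparisons in these genes depend on which flanking exon is used.
AIFM1 forward primer: tgctttgaagcagaagctgg
AIFM1 reverse primer: gttctggtgtcagccctaac
API5 forward primer: caggccgacctagaacagac
API5 reverse primer: aactcatctccgccaacaat

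Counted reads summed to 55476654 in the control library and 53578432 in the BS008 library. At least 1 read was found on 157321 and 160067 exons, and mitochondrial exons took 11.8% and 13.1% of the reads. An exon with no read could still hold up to 3 counts, or 0.0541 and 0.0560 CPM (counts scaled to the library total) in the 2 libraries. Of the 133 exons, 126 have the length of an annotated exon of their gene, and none overlaps another listed exon on its strand.

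API5 and AIFM1 were lower after BS008, ATM was lower to a smaller extent, AATF was nearly level and NFKB1 was slightly higher. Levels are given as CPM per kilobase of listed exon, so they are only roughly comparable between genes. Long listed exons with few reads lower the level of their gene. Such exons include a 963 bp exon of AIFM1 (RPKM 5.77 and 4.13), a 1326 bp exon of NFKB1 (1.29 and 1.77) and a 1066 bp exon of ATM (0.85 and 0.86). API5 was at 33.0 in control and 17.4 after BS008 (7424 and 3782 reads), which is 52.7% of the control level and a log2 ratio of -0.92 (95% exact binomial interval -0.98 to -0.87). AIFM1 was at 46.8 and 27.9 (8310 and 4782 reads), with a log2 ratio of -0.75 (-0.80 to -0.70). These are the 2 genes of the group whose summed reads differed by over 1.5-fold. ATM was at 4.18 and 3.19 (3456 and 2548 reads), the lowest level of the 5 genes, with a log2 ratio of -0.39 (-0.46 to -0.32). AATF was at 58.2 and 56.1 (6927 and 6447 reads), with a log2 ratio of -0.05 (-0.10 to -0.004). NFKB1 was at 9.90 and 11.6 (2885 and 3267 reads), with a log2 ratio of 0.23 (0.16 to 0.30). By this measure, which depends on the exons listed, the order of the genes was AATF, AIFM1, API5, NFKB1 and ATM in the control library. It was the same in the BS008 library.

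**Figure D1:**
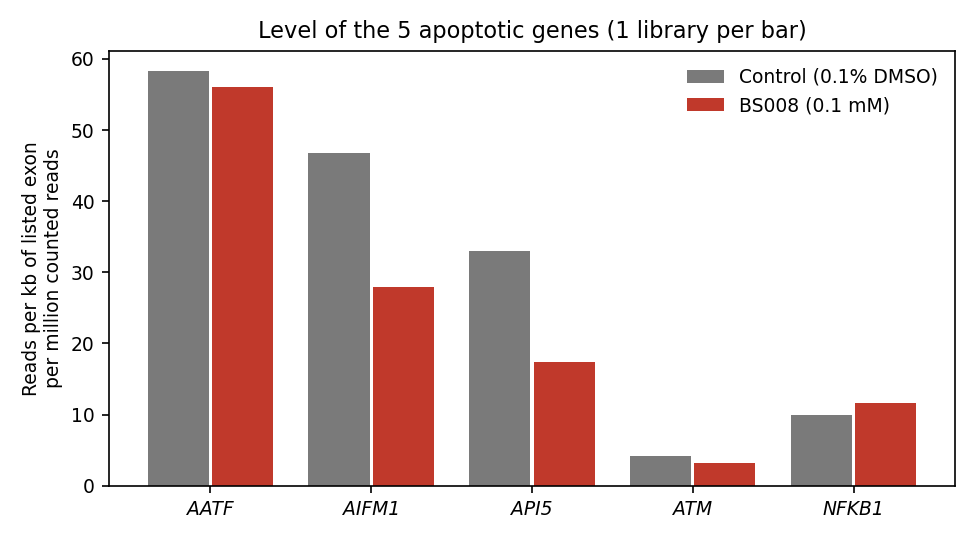
Level of the 5 genes as reads per kilobase of listed exon, scaled to CPM, with 1 bar for the control library and 1 for the BS008 library. The BS008 bars of AIFM1 (27.9 against 46.8) and API5 (17.4 against 33.0) are shorter, while those of AATF are nearly equal (56.1 against 58.2).

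Within AIFM1, API5 and NFKB1 the exons lay mostly on the same side of 0 as the gene. With 0.5 added to each CPM value, and leaving out exons below 10 counts in both libraries, 23 of the 120 exons of the 5 genes were at least 1.5-fold lower after BS008, beside 13.9% of all 131330 exons that passed the same filter. They were 11 of 16 in AIFM1, 10 of 14 in API5 and 2 of 54 in ATM. None of the 120 was at least 1.5-fold higher, beside 11.5% of all exons. The added 0.5 CPM pulls exons with few reads towards 0 in either direction, so they reach a threshold less easily. A 115 bp exon of NFKB1 (67 and 105 reads) was at 0.53 with the addition and 0.70 without it, which is over 1.5-fold. At 2-fold, 3 of the 120 were lower (1 in AIFM1 and 2 in API5), beside 3.79% of all exons, and 0 were higher, beside 3.73%. Exons of 1 gene share its RNA, so these counts are not independent of each other. The log2 ratio was below 0 in 16 of 16 exons of AIFM1, 14 of 14 of API5 and 42 of 54 of ATM, whereas it was above 0 in 21 of 24 exons of NFKB1. AATF was split, with 6 exons on either side of 0. The SD of the exon log2 ratios within a gene lay between 0.18 in NFKB1 and 0.22 in AIFM1. These ratios also hold the added 0.5 CPM, so the SDs of genes with few reads, such as ATM, are not comparable with the others.

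**Figure D2:**
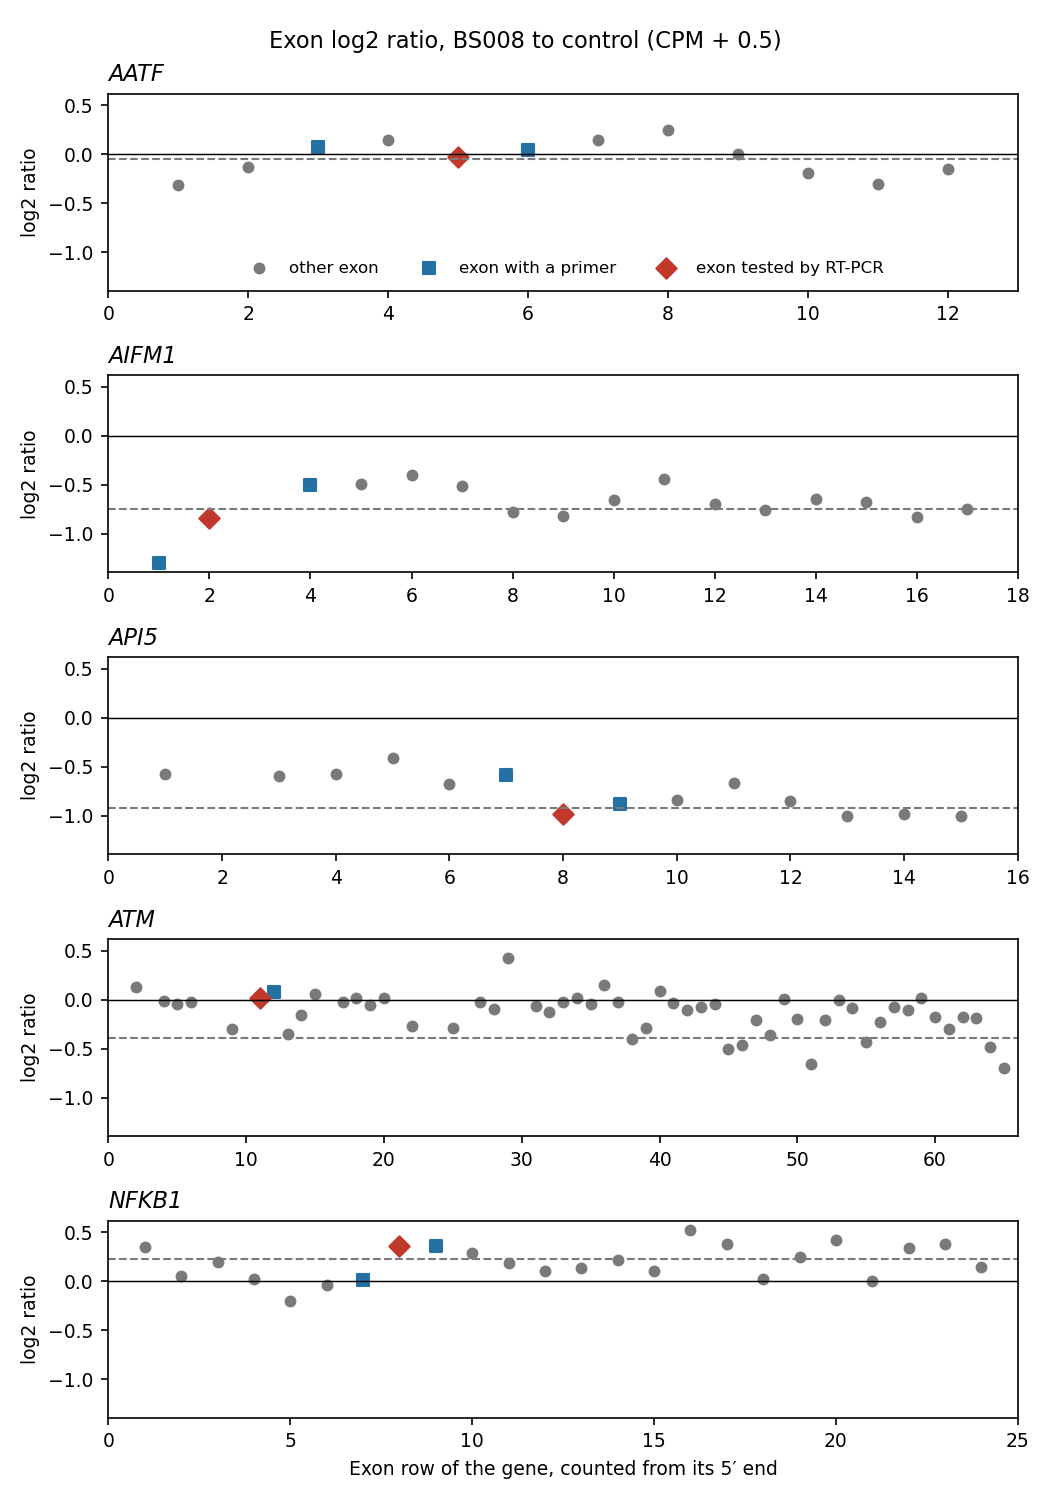
Log2 ratio of BS008 to control (CPM plus 0.5) for each exon with at least 10 counts, in order from the 5′ end of the gene. Red diamonds are exons tested by RT-PCR, blue squares are exons with a primer, grey points are other exons and the dashed line is the ratio of the summed reads. AIFM1 exon 1 lies lowest at -1.30, and the API5 exons after the tested exon lie below most of those before it.

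Reads on each exon were next set against the nearest exon on either side, which removes a change shared by the whole gene. Fisher's exact test was run on every exon with enough reads, p-values were adjusted by the Benjamini-Hochberg method, and an exon passed when its share also moved by 10 percentage points or more. Across all exons 3103 of 130193 tested (2.38%) passed at 0.05. In the 5 genes 120 exons could be tested, which are not the same 120 as for the fold changes above. Of these 1 passed, the first exon of AIFM1. An unadjusted p-value under 0.05 was found in 5 of the 120 (4.17%), beside 12.8% of all exons tested. The median size of the change was 1.98 percentage points in the 5 genes and 2.08 over all exons. None of the 6 RT-PCR exons passed.

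AATF exon 5 (hg19 chr17:35343916-35344030) was read at a similar level in both libraries. It had 496 reads in control and 467 after BS008 (77.7 and 75.8 RPKM, the deposited values that scale reads to exon length and library total). The exons with the primers had 1914 and 1934 reads together, so the tested exon took 20.6% of these reads in control (95% Wilson interval 19.0 to 22.2%) and 19.5% after BS008 (17.9 to 21.1%). Relative to the primer exons its log2 change was -0.10 (95% exact interval -0.31 to 0.11), which is 0.807 to 1.08 times the control ratio. Per base it was read more than the primer exons in both libraries, at 1.39 and 1.30 times their density. AATF exon 4 (138 bp), which also lies between the primers and is part of both products, had 425 and 457 reads and a relative log2 change of 0.09 (-0.13 to 0.31). Among the exons of AATF the highest log2 ratio was 0.24, in an 84 bp exon with 239 and 278 reads, and the lowest was -0.32, in the first exon (342 bp) with 712 and 546 reads.

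AIFM1 was lower along its whole length, and its first exon was the lowest. This exon (284 bp, hg19 chrX:129299525-129299808), which holds the forward primer, had 395 reads in control and 139 after BS008 (RPKM 25.1 and 9.13). Its level after BS008 was 36.4% of the control level, while the gene without it was at 60.7%. Its share of the reads on it and its neighbours was 38.9% in control and 23.5% after BS008 (Fisher's exact test between the 2 libraries, adjusted p = 1.3e-08). The upstream neighbour in this test lies outside AIFM1 and had 175 and 223 reads, so part of the change in share comes from a different gene. Within AIFM1, the first exon took 4.75% of the gene's reads in control and 2.91% after BS008, a relative log2 change of -0.74 (95% exact interval -1.03 to -0.45). The highest exon log2 ratio of the gene was -0.39, in an exon further along (exon 6 of the 17 listed) with 383 and 275 reads.

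The AIFM1 RT-PCR exons differed sharply in level. Exon 2 (hg19 chrX:129290435-129290577) had 446 reads in control and 230 after BS008 (RPKM 56.2 and 30.0). The alternative exon 2 (hg19 chrX:129289131-129289261) had 0 reads in control and 2 after BS008. Set against the primer exons, the alternative exon 2 took at most 0.451% of the reads in control and 0.451% after BS008 (95% Wilson interval 0.124 to 1.63%), so no difference was detectable at this depth. Nearly all reads on the pair were on exon 2 in both libraries. The share of exon 2 was 34.5% in control (31.9 to 37.1%) and 34.3% after BS008 (30.8 to 37.9%), a relative log2 change of -0.01 (-0.30 to 0.28). This value joins 2 different ones. Against the first exon alone exon 2 was relatively higher after BS008, by 0.55 (0.18 to 0.93), and against the exon with the reverse primer (453 and 302 reads) it was relatively lower, by a log2 change of -0.37 (-0.69 to -0.05). Against all other exons of the gene its relative log2 change was -0.17 (-0.41 to 0.07). In Fisher's exact test its nearest exons were the first exon and the alternative exon 2, which had almost no reads, so the test set it in effect against the first exon. Its share there was 53.0% in control and 62.0% after BS008, with an adjusted p of 0.061 in Fisher's exact test.

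API5 exon 7 (hg19 chr11:43348057-43348161) was the RT-PCR exon with the largest reduction in share. It had 191 reads in control and 80 after BS008 (RPKM 32.8 and 14.2), which is 43.4% of the control level. The exons with the primers had 948 and 564 reads together. The tested exon took 16.8% of these reads in control (14.7 to 19.0%) and 12.4% after BS008 (10.1 to 15.2%), and its density relative to the primer exons was 0.570 and 0.401. Its relative log2 change was -0.51 (95% exact interval -0.93 to -0.09). In Fisher's exact test across all exons p was 0.016 and the adjusted p was 0.18, and 25.8% of all exons tested had a change in share at least as large. The exon was thus below the density of its primer exons together already in control cells. Against all other exons of API5, however, its density was 0.994 in control and 0.814 after BS008. AATF exon 5 and exon 2 of AIFM1 were above the density of their primer exons together. Against its reverse primer exon alone, exon 2 of AIFM1 was at 0.688 in control and 0.533 after BS008.

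The comparison for API5 depended on which side of the exon was used. The exons before and after the tested exon differed in level. The 7 exons before it had 1841 and 1129 reads, a log2 ratio of -0.66 (-0.76 to -0.55), and the 7 exons after it had 5392 and 2573 reads, a log2 ratio of -1.02 (-1.09 to -0.95). After BS008 these groups were at 63.5% and 49.4% of the control level. The exon with the forward primer (207 bp) had 716 and 454 reads, and the exon with the reverse primer (90 bp) had 232 and 110 reads. Against the forward primer exon the relative log2 change of exon 7 was -0.60 (-1.03 to -0.17), while against the reverse primer exon it was -0.18 (-0.70 to 0.34). Against all exons after it the change was -0.19 (-0.59 to 0.20), and against all other exons of the gene it was -0.29 (-0.69 to 0.10), so the interval includes 0 in both. With 0.5 added to each CPM value, the lowest exon log2 ratio of API5 was -1.003, in the last exon (2103 bp, with 3664 and 1752 reads). Without this addition the last exon was at -1.01 and exon 7 was lower, at -1.21. The last exon held 49.4% of the gene's reads in control and 46.3% after BS008. The highest exon log2 ratio of API5, again with 0.5 added, was -0.41, in a 66 bp exon with 132 and 89 reads.

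ATM exon 9 (hg19 chr11:108119660-108119829) had too few reads for its splicing to be followed. It had 17 reads in each library (RPKM 1.80 and 1.87), and the exons with the primers had 40 and 44. Its share was 29.8% in control (19.5 to 42.7%) and 27.9% after BS008 (18.2 to 40.2%), with a relative log2 change of -0.14 (-1.40 to 1.13), so that a change of more than 2-fold in either direction lies within the interval. The last exon of ATM stood lower than the rest of the gene. It is 3775 bp long (hg19 chr11:108236052-108239826) and had 1185 reads in control and 694 after BS008, and its share of the gene's reads was 34.3% and 27.2%. It was at 60.6% of the control level, whereas the other 64 exons together were at 84.5%, with a log2 ratio of -0.24 (-0.33 to -0.15). With the deposited RPKM values summed over exons, in which long exons weigh less, the log2 ratio of the gene was -0.26 in place of -0.39. Among ATM exons with at least 50 counts the highest log2 ratio was 0.02, in a 150 bp exon with 69 and 68 reads.

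NFKB1 exon 8 is not listed as an exon of its own. Its 159 bases are the last bases of a listed exon of 1326 bp (hg19 chr4:103498871-103500196), which has 1167 bases more on its 5′ side, so reads from both cannot be told apart. This listed exon had 95 reads in control and 126 after BS008 (RPKM 1.29 and 1.77), and the primer exons had 220 and 237. Its share was 30.2% in control (25.4 to 35.4%) and 34.7% after BS008 (30.0 to 39.7%), with a relative log2 change of 0.30 (-0.19 to 0.79). If every read had fallen on the 159 bases, their density would have been 0.731 times that of the primer exons in control (0.575 to 0.929) and 0.899 times after BS008 (0.725 to 1.12), and these are upper limits. The 7 exons before it were at 101% of the control level and the 16 exons after it at 120%, with log2 ratios of 0.02 (-0.16 to 0.19) and 0.27 (0.19 to 0.35). The highest exon log2 ratio of the gene was 0.53, in a 115 bp exon with 67 and 105 reads, and the lowest was -0.20, in a 99 bp exon with 77 and 61 reads.

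**Figure D3:**
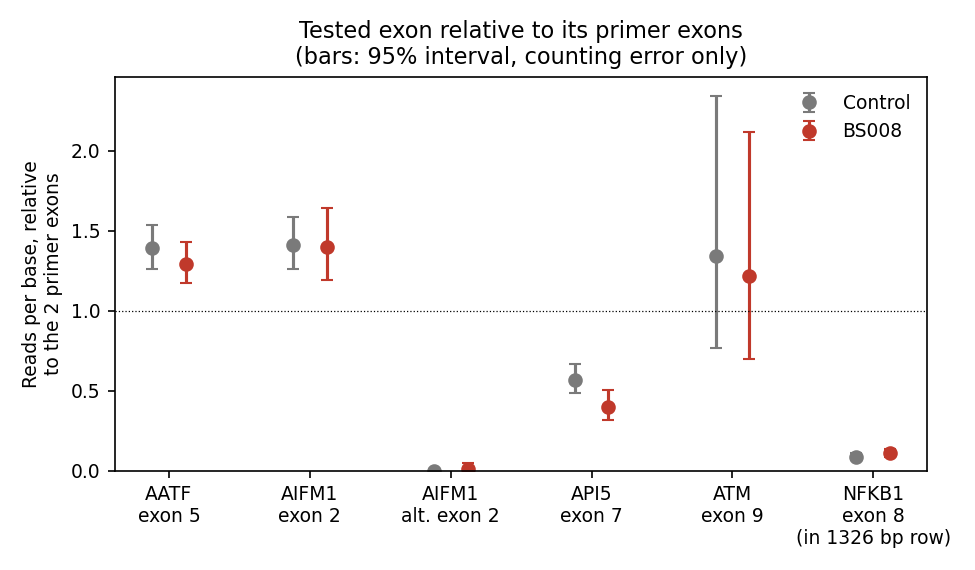
Reads per base of each tested exon relative to its 2 primer exons, in the control library (grey) and in the BS008 library (red), with 95% Wilson intervals of counting error. AATF exon 5 (1.39 and 1.30) and exon 2 of AIFM1 (1.41 and 1.40) lie above 1, API5 exon 7 (0.570 and 0.401) lies below 1 in both, the alternative exon 2 of AIFM1 is at or near 0, and NFKB1 exon 8 is shown for the whole 1326 bp listed exon.

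Set side by side over 7 sets of reference exons, the interval of the relative log2 change included 0 for all 7 sets in AATF and ATM, and in both genes the sign differed between sets. For exon 2 of AIFM1 the interval lay above 0 against the first exon, which counts as 2 of the sets because it is both the forward primer exon and the only exon before it, lay below 0 against the reverse primer exon, and included 0 for the other 4. For NFKB1 the change was positive for 6 sets and -0.05 against the reverse primer exon, and the interval lay above 0 for 1 set, all exons before it (0.44, 0.007 to 0.88). For API5 exon 7 the change was negative for all 7 sets, and its interval lay below 0 for 4 of them, the primer exons, the forward primer exon, the 2 exons on either side and all exons before it. It was the only RT-PCR exon with a fitted change whose interval against both primer exons together left out 0.

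**Figure D4:**
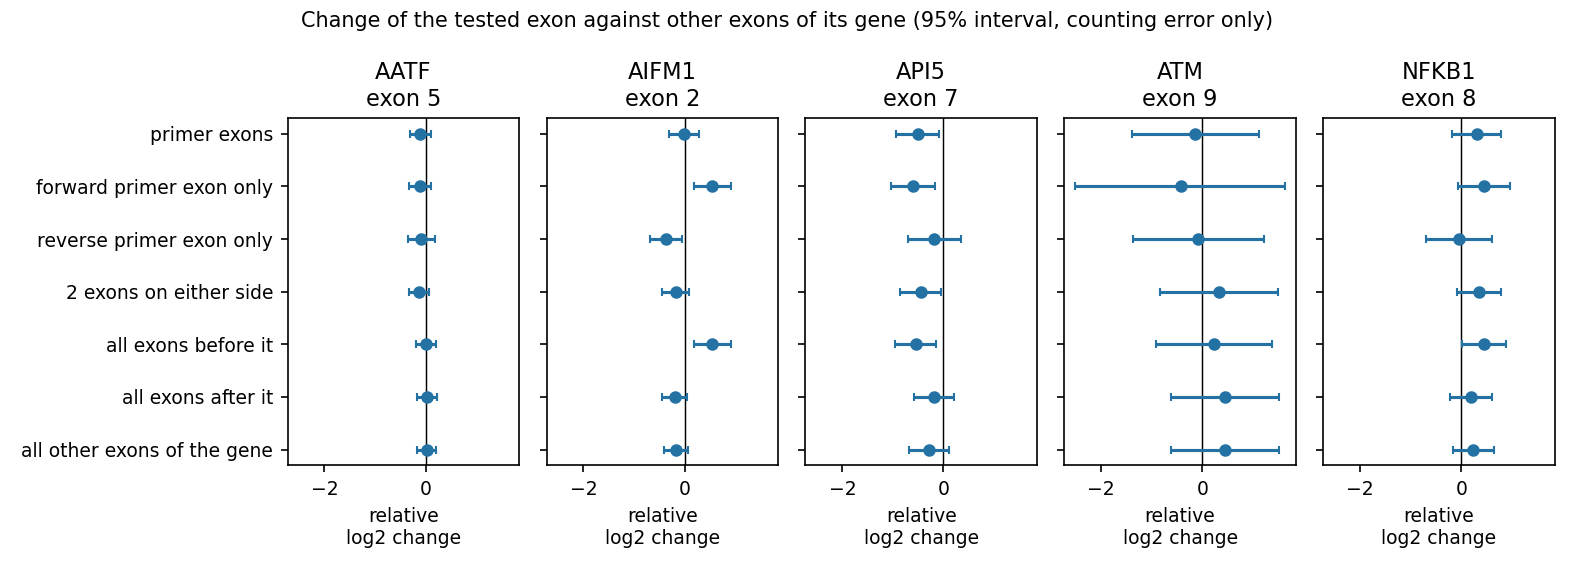
Relative log2 change of each tested exon, BS008 to control, against 7 sets of reference exons of its gene, with 95% exact intervals of counting error. Points of AATF lie close to 0, those of API5 lie between -0.60 and -0.18, the AIFM1 points turn from -0.37 to 0.55 with the primer exon used, and the ATM intervals are the widest.

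Partners of the 5 genes, taken from known function, were added to show how the surrounding pathways were read. The files name no genes, and 22 of the 26 listed partners could be tied to exons by their exon lengths. CHCHD4, CYCS, HTRA2 and FGF2 were left out. The lists were drawn up with earlier results of these data known. Summed reads were over 1.5-fold higher after BS008 in 7 of the 22 and over 1.5-fold lower in 0, and 1 of the 7 (MDM2) was under 1.5-fold without its last exon. No share over all genes stands beside this count because the files name no genes, so the exons of the partners were set against all exons. Of the 356 partner exons with enough counts, 60 (16.9%) were at least 1.5-fold higher, beside 11.5% of all exons, and 28 (7.87%) were at least 1.5-fold lower, beside 13.9%. Their median log2 ratio was -0.005, beside -0.04 for all exons. Of the 7 partners of NFKB1, 5 were over 1.5-fold higher, and these 7 genes held 49 of the 60 exons, among 87 with enough counts. TNFAIP3, an inhibitor of NF-kB signalling, had 2767 reads in control and 9114 after BS008, a log2 ratio of 1.77 (95% exact interval 1.71 to 1.83). RELB, an NF-kB subunit, had 434 and 1333 reads (1.67, 1.51 to 1.83). REL and NFKB2, which encode 2 further subunits, had log2 ratios of 1.08 and 1.06, and NFKBIA, the inhibitor that holds NF-kB in the cytoplasm, had 0.92. RELA, the partner of p50 in the main NF-kB dimer, had 0.16 and CHUK, a kinase of the pathway, had -0.30. NFKB1 itself, at 0.23, lay between these and the first 5.

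The 7 partners of ATM had a median log2 ratio of -0.12, from -0.56 in MRE11, which senses DNA breaks, to 1.07 in MDM2, the ligase that degrades p53 (4276 and 8668 reads). The last exon held 80.3% of the MDM2 reads after BS008, and without it the ratio was 0.49, under 1.5-fold. Partners of AIFM1 were DIABLO (0.50), which is released from mitochondria in apoptosis, and APAF1 (0.25), the core of the apoptosome. Both were on the other side of 0 from AIFM1 itself (-0.75). For API5 the partners found were ACIN1 (-0.34), a nuclear protein bound by API5, and E2F1 (-0.10). Of the 4 partners of AATF, DAPK3, a death-associated kinase, was over 1.5-fold higher (0.69, with 1124 and 1747 reads), and NGDN, NOL10 and RB1 lay between -0.39 and 0.24.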

How the data were processed

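Illumina mRNA-seq libraries of Huh7 cells, 1 per condition, were analysed. The authors deposited raw counts of reads per exon and RPKM values, on hg19 per the labels. The aligner, the counting tool and the use of strand are not given in the sources used here, so antisense reads cannot be told apart, and the library preparation names no strand step. Recomputing RPKM from the counts returned the deposited values within 4.72e-06. The files name no genes. Listed exons were tied to GENCODE release 29 (GRCh38) by exon length and intron length (within 10 bases), and no coordinates were converted. Log2 ratios used CPM plus 0.5, for exons reaching 10 counts in one library or the other. Neighbour shares used Fisher's exact test (two-sided, same strand, neighbours up to 100 kb away, Benjamini-Hochberg over all exons). The exon and its neighbours together needed 20 or more reads per library. The test was tried on simulated counts with large changes in well-read exons and counting error only. That trial does not cover small changes, exons with few reads or variation between cultures. The 5 genes, the partner lists and the tests were chosen with earlier results of these data known. Named exons are the RT-PCR exons, their flanking exons, and in each gene the highest and the lowest log2 ratio among exons reaching 50 counts, and partners beyond 1.5-fold are given with their values. Alternatives were TMM factors (edgeR 4.0.16), DESeq2 1.42.0 size factors, other pseudocounts, minimums, thresholds, reference exons and neighbour distances. Python 3.11.15, scipy 1.17.1, pandas 2.3.3 and R 4.3.3 were used.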

Additional observations from a re-analysis of the deposited data

How the results depend on the processing

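No paired analysis was possible because each condition has 1 library. Of 105 alternative values, 25 were counted as moved and 80 were not. Some of the 80 could not have moved, so their number does not measure how stable the results were. Leaving out overlapping exons cannot change the summed reads of the 5 genes, because none of their exons overlaps another. Dropping the count minimum cannot change the counts of exons at 2-fold. With the addition to each CPM value, an exon below 10 counts in both libraries cannot reach 2-fold. The 80 are not all small shifts, because they include ATM exon 9 going from -0.138 to 0.449 against all exons after it. The sign changed in 10, all of them relative changes of a tested exon whose interval against the primer exons included 0, in AATF (3 of them, at most 0.0348), AIFM1 (2), ATM (4, at most 0.449) and NFKB1 (1, at -0.0451). The direction of the summed reads of the 5 genes held under every scaling tried, which moved the median exon by 0.049 (TMM), 0.032 (DESeq2) and 0.021 (without mitochondrial exons) on the log2 scale. AATF was at -0.00414 with TMM factors, and ATM at -0.261 with summed RPKM. Over all exons, those higher were 4902, against 11471 with a pseudocount of 0.1, 3020 with 1, 10990 with RPKM and 15150 at 1.5-fold, and those lower were 4977, against 11189, 3017, 11128 and 18306. In the 5 genes, those lower were 3, against 1 with TMM factors, DESeq2 size factors, no mitochondrial exons or a pseudocount of 1, 6 with a pseudocount of 0.1, 7 with RPKM and 23 at 1.5-fold. Against the forward primer exon, which is also the only exon before it, exon 2 of AIFM1 had a relative log2 change of 0.551, and against the reverse primer exon -0.37. Comparing with all exons before or after an RT-PCR exon was chosen after seeing the data. Neighbour calls over all exons were 3103, against 5391 at 5 percentage points, 1056 at 20 and 1643 within 10 kb. In the 5 genes they were 1, against 0 at 20 points and 0 within 10 kb, where the first exon of AIFM1 has no second neighbour. Of the relative changes, that of ATM exon 9 (17 reads in each library) had the widest interval against the primer exons. The cause of these differences was not tested.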
